A study of Mus musculus with 16 samples.

Results

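COUP-TF, GCNF and the other orphan receptors covered here are 9 mouse genes, taken by name from the 27807 genes of the count table: Nr2f1, Nr2f2, Nr2f6, Nr6a1, Nr2e1, Nr2c1, Nr2c2, Rora and Rorb. The names were set by family membership and not by their values. The RNA came from mouse ES lines derived from blastocysts of crosses between Taf4a+/- mice, grown on feeder fibroblasts, and from embryoid bodies (EBs) made from them on the way to glutamatergic neurons under retinoic acid (RA). The 16 libraries form 8 groups of 2: wild-type (WT, Taf4+/+) and Taf4a-/- (KO, Taf4-/-) at ES, EB4 (before RA), EB5 (after the first day of RA) and EB8 (later in the RA treatment). The null allele lacks exons 11 and 12 of Taf4a, which encodes a subunit of TFIID, and the study used 2 independent lines per genotype without the labels saying which line gave which library. The p-values therefore measure the spread between these libraries, which may be partly technical.

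Nuclear receptors are transcription factors with a DNA-binding domain of zinc fingers and a ligand-binding domain, and those called orphans were cloned before any ligand was known. Many of them read direct repeats of the letters AGGTCA. COUP-TFI (Nr2f1) and COUP-TFII (Nr2f2) are RA-responsive regulators of neuronal and vascular development that compete with retinoid receptors for DNA, and Nr2f6 (EAR2) is their relative. GCNF (Nr6a1) represses Pou5f1 and other pluripotency genes as ES cells differentiate. TLX (Nr2e1) maintains neural stem cells, TR2 (Nr2c1) and TR4 (Nr2c2) are the testicular receptors, and RORα (Rora) and RORβ (Rorb) are activators that bind AGGTCA after an A/T-rich stretch.

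Libraries held between 22442118 and 40711826 reads in genes, and the ES libraries (32631020 to 40711826) were deeper than the EB libraries (22442118 to 27685306). The level of a gene is given as a normalised count, its reads divided by a scaling factor per library. Folds are ratios between group means of these counts. Log2 changes come from the fits described below, so a fold and a log2 change can differ. Counts of Taf4a did not fall in KO, with 2341.2 and 1972.8 normalised counts at EB8 against 1590.9 and 1939.7 in WT, and a count over the whole gene does not resolve exons 11 and 12, so genotypes are named here as labelled. At EB8 the WT libraries carried more RNA of neuron markers and the KO libraries more of ES cell markers. Of 4 listed neuron markers 3 were found by name (Tubb3, Dcx and Elavl3), summing to 12356 to 15956 normalised counts in WT against 444 to 936 in KO. The 5 ES cell markers summed to 18154 to 19788 in KO against 1225 to 1274 in WT. All 3 neuron markers, and 3 of 5 neural precursor markers found, were lower and 4 of the 5 ES cell markers higher in KO at EB8. At ES, EB4 and EB5 the neuron marker sum was instead higher in KO (at ES 4398 to 4556 against 2452 to 2634 in WT). Both ES ranges lie above that of KO EB8, so the sum is not confined to neurons. No marker of either list was at 0 in an EB8 library. In bulk RNA, fewer cells of a type and less RNA per cell cannot be told apart, and the part of cell makeup in the differences below was not tested.

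Changes were tested with limma on log2(normalised count + 1) over all 16 libraries, with Benjamini-Hochberg adjustment over 16124 genes whose mean was at least 10, and a threshold of 0.05 on the adjusted p. Of the 9 genes, 8 were tested. Nr2e1 fell under the filter. At EB8, 3 of the 8 were lower in KO (Nr2f1, Nr2f6 and Rorb) and 1 was higher (Nr6a1), where 22.9% of all tested genes passed in either direction, 12.5% lower and 10.4% higher. At ES, EB4 and EB5, 0 of the 8 passed, against 0%, 6.12% and 4.34% of all tested genes. At an unadjusted p under 0.05 the counts were 0, 3 and 4 of 8, against 1846, 3668 and 3342 of all 16124 tested genes. On the recovered reads, edgeR called 0 at each of these stages and DESeq2 called 0, 3 and 1. Of all 16124 tested genes, edgeR called 0, 811 and 603 and DESeq2 called 476, 2077 and 1719. In the steps of the WT course (ES to EB4, EB4 to EB5, EB5 to EB8) 3, 1 and 3 of the 8 changed, where 16.5%, 3.73% and 10.4% of all tested genes did. In KO 2, 2 and 0 changed, where 3.5%, 2.51% and 0.738% did. The 0 became 3 at an unadjusted p under 0.05, 0 in edgeR and 1 in DESeq2. For this last step these settings held 2065, 83 and 661 of all 16124 tested genes.

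**Figure D1:**
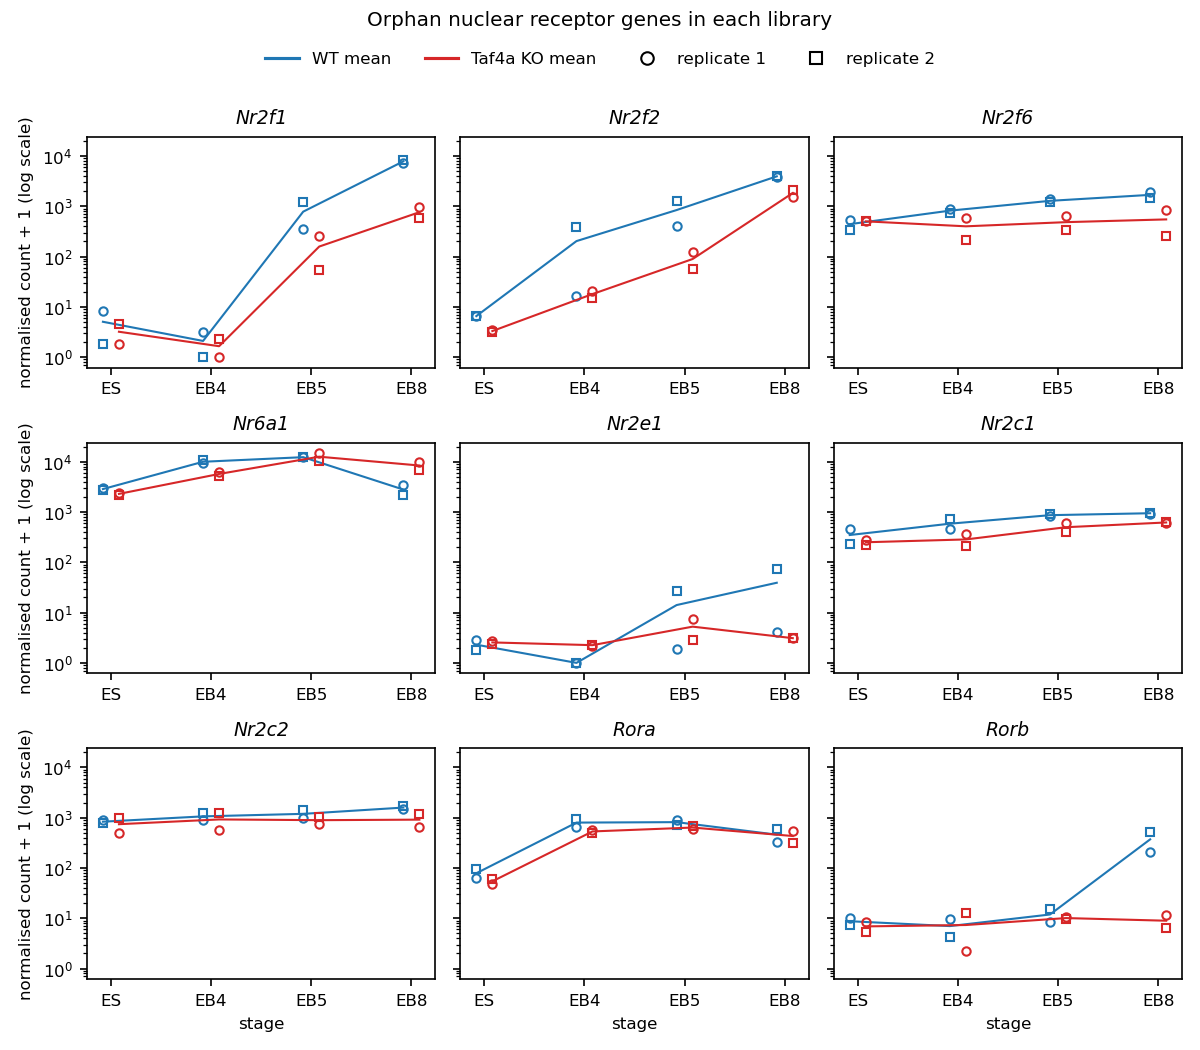
Normalised count + 1 on a log scale (y axis) of the 9 genes by stage (x axis), with a point per library, circles for replicate 1, squares for replicate 2, blue for WT, red for Taf4a KO, and lines through group means. Nr2f1 and Nr2f2 climbed from a few counts to between 3871.8 and 8334.7 in WT, Rorb left its low level in the WT EB8 libraries alone (210 and 529.4), and Nr6a1 peaked at EB5 in both genotypes.

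COUP-TFI rose between EB4 and EB5, the first day of RA, in both genotypes. Nr2f1 (ENSMUSG00000069171, protein coding, minus strand, chr13:78328234-78339018 on NCBIM37) counted 7.3 and 0.8 in the WT ES libraries and 2.2 and 0 at EB4, then 357.6 and 1201.4 at EB5 and 7276.3 and 8334.7 at EB8. In KO it counted 0.8 and 3.6 at ES, 0 and 1.3 at EB4, 260.7 and 53.3 at EB5 and 948.5 and 571 at EB8. The genotypes overlapped at ES and EB4, where nearly every library was at a handful of reads, and every KO library lay below every WT library at EB5 and EB8. In the order of the group means, KO EB8 (760 ± 267, SD, n = 2) stood beside WT EB5 (780 ± 597) and these did not differ beyond their spread.

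Nr2f1 rose over the first day of RA in both genotypes. No library came from EBs kept without RA after EB4, so RA and a further day of culture cannot be told apart. Both EB4 groups lay at or under the floor of 3 reads per library, so the rise to EB5 is a bound. For the group means it was at least 240-fold in WT and at least 42.8-fold in KO, and single libraries can lie under it. The limma adjusted p of the rise was 0.000312 in WT and 0.00372 in KO. In these steps 2.59% and 1.82% of all tested genes were called higher. The KO call was lost without KO EB5 replicate 1, where the log2 change was 5.17. It was also lost in a fit of only the groups compared (adjusted p = 0.07), which called 91 of all 16124 tested genes in this step. From EB5 to EB8 Nr2f1 rose by a further 10.0-fold in WT (log2 change 3.57 ± 0.95 SE, adjusted p = 0.0328), a call lost without WT EB5 replicate 1 (2.70, adjusted p = 0.26) without either WT EB8 library (adjusted p = 0.114 and 0.158), with a pseudocount of 0.1 (0.189) and without the filter (0.0549). In KO the same step gave 2.63 ± 0.95 (adjusted p = 0.253). At EB8 the KO mean was 10.3-fold under the WT mean. The log2 change of KO against WT in limma was -3.40 ± 0.95 at EB8 (95% interval -5.47 to -1.33, adjusted p = 0.0226) and -2.46 ± 0.95 at EB5 (adjusted p = 0.164). The EB8 call was lost when any of the 4 EB8 libraries was left out (adjusted p from 0.0634 to 0.118, log2 change from -3.77 to -3.04) and with a pseudocount of 0.1 (adjusted p = 0.146). The change from ES to EB8 differed between genotypes by -2.99 (95% interval -5.92 to -0.06), which did not pass (adjusted p = 0.193).

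The 5′ part of Nr2f1 overlaps lincRNA genes on the opposite strand, and the kit does not mark strand. Gm8327 shares 20 exonic bases with it and A830082K12Rik shares 103. Gm8327 counted 940.9 and 1272.6 at EB8 in WT against 137.2 and 115 in KO, and was at 0 in both groups at EB4. A830082K12Rik counted 504.1 and 428.8 against 89.7 and 72.4. Both were thus lower in every KO EB8 library than in every WT one, as Nr2f1 was, and reads in the shared bases cannot be told apart.

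COUP-TFII went from a few counts at ES to its highest levels at EB8, with WT EB4 replicates far apart. Nr2f2 (ENSMUSG00000030551, minus strand, chr7:77496832-77511621) counted 5.5 and 5.6 in WT at ES, 15.3 and 388.2 at EB4, 399.9 and 1277.1 at EB5 and 3871.8 and 3982.1 at EB8. The KO counts were 2.5 and 2.1, 19.9 and 14, 120.4 and 56.2, and 1544.6 and 2117.7. The KO libraries were under the WT libraries at ES, EB5 and EB8 and overlapped at EB4, where the WT replicates stood far apart. At ES each KO library held 3 reads, the floor, and the WT libraries 6 and 7.

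In limma no genotype difference of Nr2f2 passed the threshold, while DESeq2 called it lower in KO at EB4 (-3.57, adjusted p = 0.0147) and EB5 (-3.24, adjusted p = 0.029). The EB4 change in limma was -2.17 (adjusted p = 0.244), and without WT EB4 replicate 1 it passed (-4.46, adjusted p = 0.0156), while without WT EB4 replicate 2 it was 0.12. At EB5 the log2 change was -3.10 ± 1.05 (95% interval -5.38 to -0.82, adjusted p = 0.116) and at EB8 it was -1.12 ± 1.05 (-3.40 to 1.16, adjusted p = 0.48). Fitted on the EB8 libraries alone, the same EB8 change passed (adjusted p = 0.015). In WT the step from ES to EB4 was called (3.61 ± 1.05, adjusted p = 0.0351, with 8.98% of all tested genes higher). It rests on WT EB4 replicate 2, without which it was 1.33 (adjusted p = 0.22), and it was also lost without either WT ES library (adjusted p = 0.0992 and 0.1), without the filter (0.0575) and in a fit of only the groups compared (0.239). In WT EB4 replicate 2 the summed level of the 5 mesoderm markers (T, Mixl1, Mesp1, Twist1, Kdr) was 1448 against 479 in the other WT EB4 library, where Mesp1 was at 0. KO EB4 replicate 1 had a sum of 1164, with Mixl1 at 328.3, beside 19.9 counts of Nr2f2. In KO the largest step came from EB5 to EB8 (4.44 ± 1.05, adjusted p = 0.0798 in limma and 0.00301 in DESeq2). At ES, where Nr2f2 was at 5.6 or less, the 8 tested fibroblast markers of the feeder layer did not pass, and the 10 listed summed to 1286 to 3201 in WT against 291 to 847 in KO.

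Per length of exon, the order of the COUP-TF pair at EB8 differed between the genotypes. In RPKM, reads per kilobase of exon scaled to the reads in genes of each library, Nr2f1 stood at 56.5 and 66.6 and Nr2f2 at 29.4 and 31.1 in the WT EB8 libraries, a ratio of 1.92 and 2.14. In the KO EB8 libraries Nr2f1 stood at 8.33 and 5.03 and Nr2f2 at 13.3 and 18.2, a ratio of 0.626 and 0.276. Nr2f1 was thus the higher of the pair in both WT libraries and the lower in both KO libraries. At EB5 the ratio was 0.915 and 0.962 in WT and 2.22 and 0.969 in KO, which overlap. The ratio was looked at after the values were seen and is given without a test, since 2 libraries against 2 allow an exact two-sided permutation p of 0.333 at the least. The summed level of the pair at EB8 was 85.9 and 97.7 in WT and 21.6 and 23.2 in KO.

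The 250 bases upstream of the RefSeq start of Nr2f2 (chr7:77511633-77511882, minus strand, NCBIM37, matched exactly from the GRCm38.p6 window of RefSeq, no annotated exon within) are shown because its KO mean went from 10.5% of the WT mean at EB5 to 46.6% at EB8. The capitals mark the letters CCAAT on either strand.
Nr2f2: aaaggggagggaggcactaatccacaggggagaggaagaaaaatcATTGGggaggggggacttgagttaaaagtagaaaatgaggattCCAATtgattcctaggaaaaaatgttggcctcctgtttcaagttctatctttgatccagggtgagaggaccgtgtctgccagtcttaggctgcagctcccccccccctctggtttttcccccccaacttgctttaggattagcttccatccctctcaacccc
CCAAT was read at positions -205 to -201 (opposite strand) and -162 to -158 counted from the start, and it occurs in 37.4% of 32544 mouse windows of 300 bases. The core motif AGGTCA was not among these letters on either strand.

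EAR2 was lower in KO at EB8. Nr2f6 (ENSMUSG00000002393, minus strand, chr8:73898022-73905859), which like the COUP-TFs acts mostly as a repressor, counted 536.1 and 342 in WT at ES, 885.5 and 746.3 at EB4, 1367.3 and 1190.4 at EB5 and 1893.4 and 1469.6 at EB8. The KO counts were 502.2 and 496.7, 586.5 and 209.3, 630.5 and 332.6, and 838.8 and 253.5. The WT libraries lay above the KO libraries at EB4, EB5 and EB8, and KO replicate 2 was the lower of the pair at each EB stage. No single step passed in either genotype. At EB8 the KO mean was 3.08-fold below the WT mean. The log2 change in limma was -1.85 ± 0.54 at EB8 (95% interval -3.03 to -0.67, adjusted p = 0.0277), -1.48 ± 0.54 at EB5 (adjusted p = 0.144) and -1.21 ± 0.54 at EB4 (adjusted p = 0.206). The EB8 call was lost without WT replicate 1 (-1.67, adjusted p = 0.13), WT replicate 2 (-2.03, 0.0786) or KO replicate 2 (-0.99, 0.242). It was also lost in edgeR (-1.61, adjusted p = 0.0545) and in a fit of only the groups compared (adjusted p = 0.0627).

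The chromosome of Nr2f6 also stood apart. The level of chromosome 8, the median log2 deviation of its 709 genes from their mean, reached 0.40 to 0.43 in the 3 EB libraries of WT replicate 1, against -0.18 to 0.01 over the remaining 13 libraries. With the level of the chromosome subtracted in each library, the EB8 change of Nr2f6 was -1.64 (adjusted p = 0.0523), a setting added after the data were seen. At EB8, WT replicate 2, where chromosome 8 was not raised, counted 1469.6, and the KO libraries 838.8 and 253.5. The part of the chromosome level in this difference was not tested. Nr2f6 shares 1622 exonic bases with Ocel1 on the opposite strand, which counted 508.3 and 283.8 at EB8 in WT and 160.4 and 137.4 in KO.

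**Figure D2:**
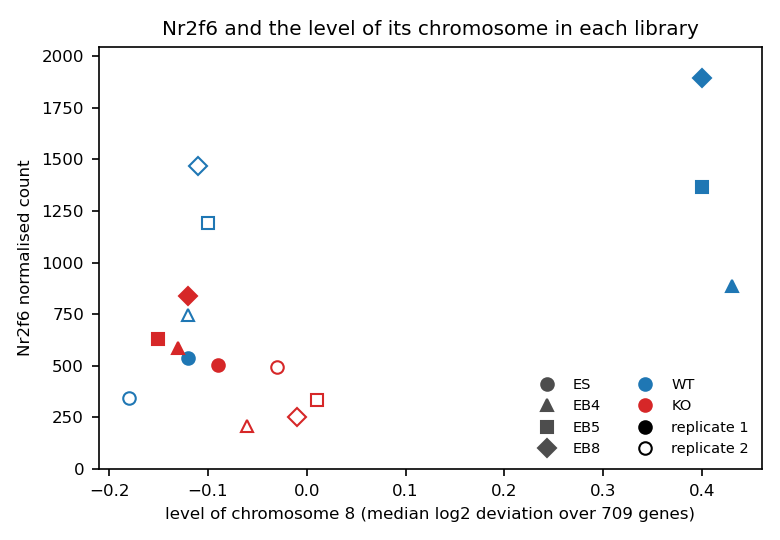
Nr2f6 normalised count (y axis) against the level of chromosome 8 (x axis, median log2 deviation over 709 genes) in the 16 libraries, with blue for WT, red for KO, filled points for replicate 1, open points for replicate 2 and a shape per stage. The 3 points at the right are the EB libraries of WT replicate 1 (0.40 to 0.43). Among the others the WT EB5 and EB8 points lie above every KO point, while the WT ES and EB4 points do not.

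GCNF followed a different course, with a peak and a fall. Nr6a1 (ENSMUSG00000063972, minus strand, chr2:38578890-38783208) counted 2955.3 and 2741.1 in WT at ES, 9261 and 10630.7 at EB4, 12342 and 12204.6 at EB5 and 3366.7 and 2208.6 at EB8. In KO it counted 2361.8 and 2209.2, 6296.9 and 5082.9, 14713.6 and 10355.2, and 9970.4 and 6790.9. The KO libraries lay below the WT libraries at ES and EB4, overlapped them at EB5 and lay above them at EB8. The highest mean was KO EB5 (12530 ± 3082, SD, n = 2), which overlapped WT EB5 (12270 ± 97.2), and WT EB8 (2788 ± 819) was back in the range of WT ES (2848 ± 152).

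In WT, Nr6a1 rose from ES to EB4 (log2 change 1.80 ± 0.24, adjusted p = 0.00112) and fell from EB5 to EB8 by 2.17 on the log2 scale (adjusted p = 0.000203, where 4.62% of all tested genes were called lower). In KO it rose from ES to EB4 (1.31, adjusted p = 0.0168) and again from EB4 to EB5 (1.13, adjusted p = 0.0256), and its EB8 against EB5 change of -0.58 ± 0.24 did not pass (adjusted p = 0.312). The KO rise to EB4 was lost without any of its 4 libraries (adjusted p from 0.0564 to 0.13), and the KO rise to EB5 without KO EB4 replicate 1, KO EB4 replicate 2 or KO EB5 replicate 1 (0.0627, 0.188 and 0.225). In a fit of only the groups compared, the rises to EB4 in WT and KO and the KO rise to EB5 did not pass (0.0549, 0.0713 and 0.115). For these steps that fit called 0, 23 and 91 of all 16124 tested genes. At EB4 the KO level was -0.81 ± 0.24 against WT (95% interval -1.32 to -0.30, adjusted p = 0.0628), a value that passed in DESeq2 (adjusted p = 0.0205). At EB5 the change was 0.01 (-0.50 to 0.52). At EB8 KO was 3.01-fold above WT (1.59 ± 0.24, adjusted p = 0.000691), which passed in each alternative tried. The change from ES to EB8 differed between the genotypes by 1.91 ± 0.33 (adjusted p = 0.00712, where 7.29% of all tested genes passed).

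Genes reported as targets of GCNF were described beside it. Of the 5 listed (Pou5f1, Nanog, Tdgf1, Gdf9 and Bmp15), 3 were tested, and Gdf9 and Bmp15, genes of the oocyte, were under the filter. Pou5f1, which encodes the pluripotency factor Oct4, counted 193.2 and 260.5 in WT at EB8 and 3217.9 and 3690 in KO. Nanog counted 117.6 and 313.4 against 7989 and 8407.9. Tdgf1, which encodes the Nodal co-receptor Cripto, counted 57.8 and 246.7 against 779.7 and 1013. All 3 were higher in KO at EB8 without overlap (log2 changes 3.94, 5.41 and 2.88, adjusted p = 5.57e-05, 7.67e-05 and 0.0072). At EB5, where Nr6a1 overlapped between the genotypes, Nanog was higher in KO (2.69, adjusted p = 0.023), while Pou5f1 was at 1.40 (adjusted p = 0.0591) and Tdgf1 at 2.17 (adjusted p = 0.0759). Pou5f1 and Nanog are also in the list of ES cell markers.

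**Figure D3:**
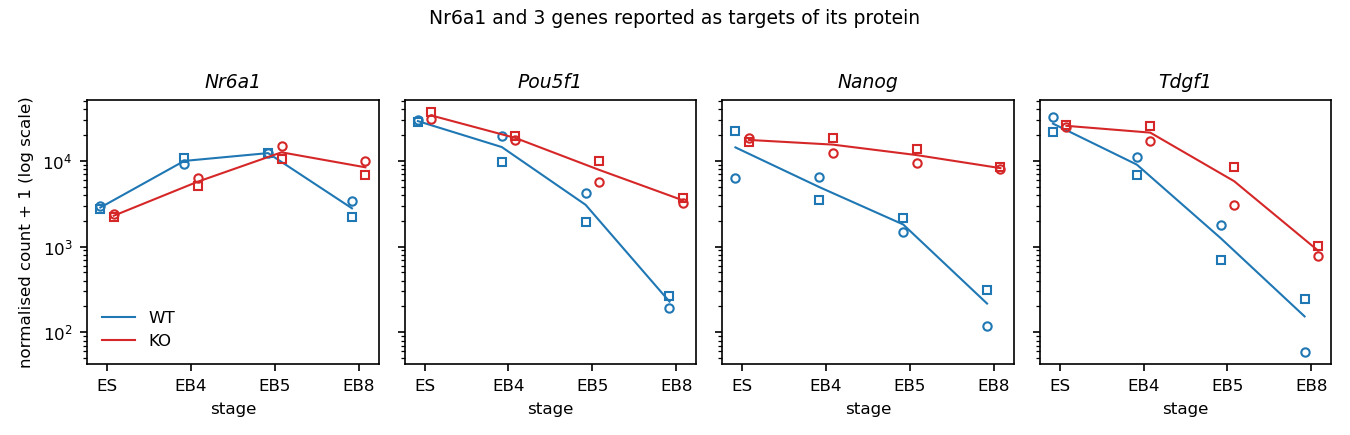
Normalised count + 1 on a log scale (y axis) of Nr6a1 and 3 genes reported as its targets, by stage (x axis), with circles for replicate 1, squares for replicate 2, blue for WT, red for KO and lines through group means. At EB8 both KO points lie above both WT points in all 4 panels, and at EB5 the Nr6a1 points of the genotypes overlap while those of Nanog do not.

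RefSeq lists starts of Nr6a1 beyond the first. The 250 bases upstream of one inside the gene, 143173 bases downstream of its GENCODE start (chr2:38640036-38640285, minus strand, NCBIM37, 5 bases in an annotated exon), are shown because it was the only window among the 12 of the 9 genes with the core motif AGGTCA. The capitals mark TGACCT, the motif on the opposite strand.
Nr6a1: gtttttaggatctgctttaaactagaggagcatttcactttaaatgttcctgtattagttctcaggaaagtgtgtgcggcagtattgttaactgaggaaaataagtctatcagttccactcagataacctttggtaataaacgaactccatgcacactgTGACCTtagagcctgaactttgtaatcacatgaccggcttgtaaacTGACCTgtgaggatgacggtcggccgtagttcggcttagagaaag
The copies lie at -91 to -86 and -45 to -40 from that start. AGGTCA on either strand occurs in 16.2% of all windows. Direct repeats of AGGTCA with spacers of 0, 1, 2 and 5 bases occur in 0.00615%, 0.0399%, 0.00922% and 0.00922% of them and in none of the 12. A match in letters is a description of the sequence, and a count per gene does not show which start was used.

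TLX stayed near the floor. Nr2e1 (ENSMUSG00000019803, minus strand, chr10:42281769-42303438) had 23 reads in WT EB5 replicate 2 and 69 in WT EB8 replicate 2, and 7 reads or fewer in every other library. In normalised counts these libraries read 25.3 and 73.1, and their WT partners 0.9 and 3.2. The KO libraries read 6.6 and 1.9 at EB5 and 2.1 and 2.1 at EB8. The WT signal thus lay in 1 replicate of each pair, and at EB8 the KO libraries were under the floor of 3 reads. No test was made, as the mean was under 10. Of the 4 genes listed as targets of TLX, 3 were tested and none passed at any stage. Cdkn1a, a cell cycle inhibitor, and Gfap, a gene of astrocytes, had EB8 log2 changes of 0.47 and 1.98 (adjusted p = 0.262 and 0.0856).

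The testicular receptors had reads in every library, and none of their changes passed the threshold in limma over all libraries. Nr2c1 (ENSMUSG00000005897, plus strand, chr10:93610768-93659956) counted 465.1 and 228.8 in WT at ES, 455.9 and 710.9 at EB4, 814 and 910.3 at EB5 and 915.7 and 968.8 at EB8. KO libraries counted 278.9 and 218.7, 358.7 and 208, 597.3 and 395.6, and 598.2 and 635.9. The KO libraries were below the WT libraries at EB4, EB5 and EB8. The log2 changes at these stages were -1.06, -0.82 and -0.61 (SE 0.36 each), with adjusted p of 0.105, 0.221 and 0.252. The EB4 change passed in DESeq2 (-1.04, adjusted p = 0.0465), and the WT step from ES to EB4 passed without WT ES replicate 1 (1.31, adjusted p = 0.042). The 95% interval at EB8 ran from -1.40 to 0.18.

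Nr2c2 (ENSMUSG00000005893, plus strand, chr6:92041384-92123051) counted 879.2 and 782.9 in WT at ES, 880.1 and 1240.6 at EB4, 974.9 and 1405.6 at EB5 and 1483.8 and 1689.8 at EB8. In KO it counted 504.7 and 977.7, 579.5 and 1263.4, 744.3 and 1037.6, and 645.7 and 1180.3. KO replicate 1 was the lower KO library at each of the 4 stages, and only at EB8 did both KO libraries lie below both WT libraries. The EB8 change was -0.86 ± 0.41 (95% interval -1.76 to 0.04, adjusted p = 0.157). Nr2c2 shares 3533 exonic bases with Mrps25 on the opposite strand. Mrps25 was also lower in KO replicate 1 than in KO replicate 2 at each of the 4 stages (597.2 against 1000.3 at EB8). The embryonic globin genes Hbb-y and Hbb-bh1, reported targets of these receptors, were under the filter.

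RORα came up before RA in both genotypes. Rora (ENSMUSG00000032238, plus strand, chr9:68501593-69236053), best known from the cerebellum and the circadian clock, counted 61.9 and 93.3 in WT at ES, 658.7 and 936.1 at EB4, 914.6 and 713.8 at EB5 and 323.4 and 594 at EB8. The KO counts were 46.5 and 60, 573.6 and 490, 581.2 and 689.4, and 545.5 and 316.4. Every EB4 library was above every ES library. The KO libraries lay below the WT libraries at ES, EB4 and EB5, and the genotypes overlapped at EB8. From ES to EB4 the log2 change was 3.35 ± 0.36 in WT and 3.30 ± 0.36 in KO (adjusted p = 0.000461 and 0.00376), where 8.98% and 2.51% of all tested genes were called higher. The KO call was lost without KO EB4 replicate 1 (log2 change 3.19). Both calls were lost in a fit of only the groups compared (adjusted p = 0.0571 in WT and 0.0566 in KO). That fit called 0 and 23 of all 16124 tested genes. The genotypes differed at no stage beyond the threshold, and the 95% interval of the EB8 change of -0.08 ran from -0.86 to 0.71.

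RORβ rose at the last stage in WT. Rorb (ENSMUSG00000036192, minus strand, chr19:19005095-19185686), a gene of the developing cortex and retina, counted 9.1 and 6.4 in WT at ES, 8.8 and 3.2 at EB4, 7.5 and 14.3 at EB5 and 210 and 529.4 at EB8. In KO it counted 7.5 and 4.3, 1.2 and 11.5, 9.5 and 8.7, and 10.6 and 5.3. The WT EB8 libraries thus stood apart from the other 14, among which the groups overlapped. The WT step from EB5 to EB8 was 4.87 ± 0.82 (adjusted p = 0.00315, with 5.82% of all tested genes higher), and the KO step was -0.24 (95% interval -2.03 to 1.55, adjusted p = 0.952), with a KO EB8 mean of 7.94 ± 3.69 normalised counts (SD, n = 2). At EB8 the KO mean was 2.15% of the WT mean (log2 change -5.29 ± 0.82, adjusted p = 0.000909), which passed in each alternative tried. The change from ES to EB8 differed between genotypes by -4.92 ± 1.17 (adjusted p = 0.0262). That call was lost without WT ES replicate 2, WT EB8 replicate 2, KO ES replicate 1, KO ES replicate 2 or KO EB8 replicate 2 (log2 values -5.26 to -4.26 and adjusted p 0.0564 to 0.104), and with a pseudocount of 0.1 (adjusted p = 0.0546).

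The sequence upstream of the outer start of Rorb (chr19:19185687-19185936, minus strand, NCBIM37, no annotated exon within) is shown because this gene had the largest genotype difference of the 9. The capitals mark GGGCGG or CCAAT on either strand.
Rorb: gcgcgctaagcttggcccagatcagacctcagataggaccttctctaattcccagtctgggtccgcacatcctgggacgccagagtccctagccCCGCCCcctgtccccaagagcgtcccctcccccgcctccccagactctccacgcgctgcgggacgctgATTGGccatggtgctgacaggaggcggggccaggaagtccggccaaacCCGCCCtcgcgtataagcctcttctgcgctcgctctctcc
GGGCGG, the letters of a GC box, was read on the opposite strand at -156 to -151 and -40 to -35, and CCAAT on the opposite strand at -88 to -84. GGGCGG occurs in 35.9% of all windows. The 250 bases were 66.0% G or C. The letters TATAAA, found in 13.6% of all windows, were in none of the 12.

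Of the 3 genes listed as targets of the ROR receptors, Arntl and Itpr1 were tested. Arntl, which encodes the clock factor BMAL1, was higher in KO at EB4 (1.34, adjusted p = 0.0354) and at EB8 (1.43, adjusted p = 0.00848), with 471.6 and 574.2 against 171.2 and 216 normalised counts at EB8. Itpr1 changed by 0.42 at EB8 (adjusted p = 0.118). Its change from ES to EB8 was called higher in KO than in WT, where 7.29% of all tested genes passed. Its rise from ES to EB4 in KO was called as well, where 2.51% were called higher. Of the COUP-TF targets, the semaphorin receptor Nrp1 was lower in KO at EB5 (212.4 and 98.9 against 836.5 and 1393.5, log2 change -2.89, adjusted p = 0.0126) and Nrp2 was higher at EB4 (1890.2 and 1974.2 against 414.3 and 841.8, 1.71, adjusted p = 0.046). Neither passed at EB8 (adjusted p = 0.11 and 0.594).

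**Figure D4:**
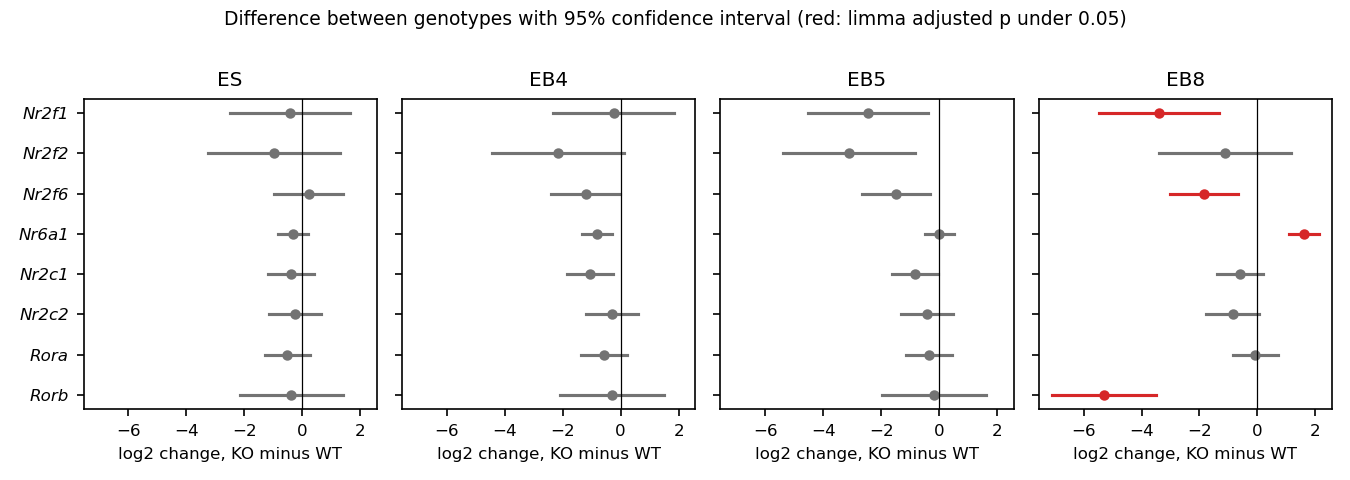
Log2 change of KO minus WT (x axis) with its 95% confidence interval for the 8 tested genes (y axis) at each stage, red where the limma adjusted p was under 0.05. The red points are Nr2f1, Nr2f6 and Rorb to the left and Nr6a1 to the right at EB8, and no gene is red at ES, EB4 or EB5.

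Without a threshold, 6 of the 8 tested genes had both KO libraries below both WT libraries at EB8 and 1, Nr6a1, had both above, where 33.5% and 30.4% of all tested genes did so. At ES, EB4 and EB5 the genes below numbered 3, 4 and 5 of 8, against 20.7%, 26.6% and 28.1% of all tested genes. Those at ES include Nr2f2, whose KO libraries were at the floor of 3 reads. The median log2 change of the 8 was -0.38 at ES, -0.69 at EB4, -0.62 at EB5 and -0.99 at EB8, and that of all tested genes -0.003, -0.004, -0.008 and -0.029.

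The rest of the superfamily was described from a list of 40 other nuclear receptors, 29 of them tested. At EB8, 3 were higher and 7 lower in KO, with a median of 0.08, where 10.4% of all tested genes were higher and 12.5% lower. The 3 higher were the ES cell receptors Esrrb (4.35 ± 0.33), Nr5a2 (4.01 ± 0.25) and Nr0b1 (2.58 ± 0.44), and they were higher at EB4 and EB5 as well. The lower ones included Esrrg (-3.92), Nr4a2 (-2.23) and Rarb (-2.15), the last a retinoic acid receptor gene that RA itself induces. Of the 20 coregulators listed, Bcl11a, which encodes a partner of COUP-TF, was lower at EB8 (-3.26 ± 0.49, adjusted p = 0.000716), as were Lcor (-1.12) and Hdac2 (-1.03), and Ncoa3, a coactivator, was higher (0.90) there and at EB4 and EB5.

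**Figure D5:**
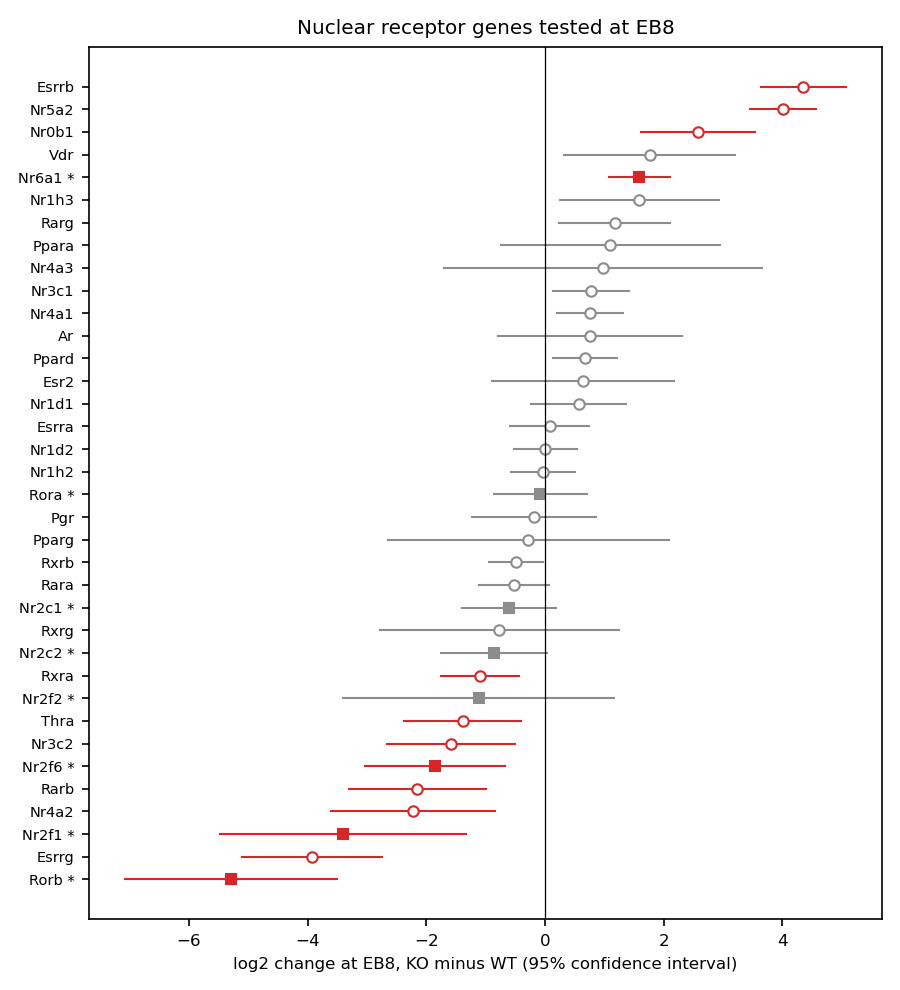
Log2 change at EB8 (x axis, KO minus WT, with 95% confidence interval) of the 8 tested orphan receptors (filled squares, asterisk) and of other nuclear receptors (open circles), ordered by change, red where the adjusted p was under 0.05. Rorb is lowest, Nr2f1 and Nr2f6 sit among the lower receptors with Esrrg, Nr4a2 and Rarb, and Nr6a1 lies on the upper side below Esrrb, Nr5a2 and Nr0b1.

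The genes most alike in pattern were ranked by Pearson's r of log2(normalised count + 1) over the 16 libraries among 13046 genes with a mean of at least 50, as a description, since these libraries share stage and genotype. Nr2f1 was most like Hoxd3 (0.988), the overlapping Gm8327 (0.984) and Hoxa3 (0.983). Nr2f2 was most like Zfp697 (0.981) and Nr6a1 most like Vamp8 (0.93). Rorb was most like AI854517 (0.945), Frmd4a (0.925) and Elavl4 (0.922), the last an RNA-binding protein of neurons. Rora was most like Khnyn (0.976), Nr2c1 most like Zfp777 (0.981) and Nr2f6 most like 1110014N23Rik (0.942). Nr2c2 was most like C87436 (0.926), Tia1 (0.919) and Zfyve20 (0.904), which all lie on chromosome 6, as Nr2c2 does.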

How the data were processed

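Polyadenylated RNA from 16 libraries was sequenced single-end with an unstranded kit. Per the labels, the authors aligned reads with TopHat to mouse build mm9 and normalised gene counts with DESeq2. The submitters' processing notes also list HTSeq 0.5.4p3, CASAVA 1.7 and 1.8 and DESeq2 1.0.19. Annotation release and strand setting are not given in the sources used here. The values they deposited are a signal, namely gene read counts scaled by a size factor for each library. All values were whole multiples of 1 read (tolerance 0.01 read), so reads and depth were recovered (22442118 to 40711826 per library). The floor of detection was set at 3 reads per library, and a fold against a group at the floor is a bound. Floors cover counting error only.

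Groups were taken from the labels. limma 3.58.1 (R 4.3.3) with trend was fitted to log2(value + 1), with a mean for each of the 8 groups, 8 residual and 4.27 prior degrees of freedom, and a filter on the mean of 10. Changes of genes with low counts are understated on this scale. Confidence intervals are at 95%. edgeR 4.0.16 and DESeq2 1.42.0 served as alternatives on the recovered reads, beside other pseudocounts, filters and scalings, a replicate block and leaving out each library. The fits were tested on simulated data. Replicates of a group differed by more than sampling noise.

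Positions, exons and overlaps are from GENCODE M1 on NCBIM37. Upstream sequences are from RefSeq (GRCm38.p6 windows of 250 bases before and 50 after a start, 12 for the 9 genes), each matched exactly in NCBIM37. The genes and lists were chosen with earlier results of these data known. Every one of the 9 genes is named. From the lists of other receptors and coregulators the named genes are up to 4 in each direction and stage with the largest change among those that passed without overlap. Some genes that these rules cover are counted but not reported by name. Listed targets may all be named, and for each tested gene up to 3 genes most alike over 16 libraries.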

Additional observations from a re-analysis of the deposited data

Results flagged for a closer look

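For 2 of the 9 genes the change from ES to EB8 differed between the genotypes by the interaction term of limma. For Nr6a1 the KO change exceeded the WT change by 1.91 on the log2 scale (adjusted p = 0.00712). Nr6a1 ended 3.67-fold above ES in KO and 1.02-fold below ES in WT. For Rorb the difference was -4.92 (adjusted p = 0.0262). Rorb counted 210 and 529.4 in the WT EB8 libraries and 14.3 or less in each other library. Of all tested genes, 7.29% passed this test.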

How the results depend on the processing

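The number of the 8 genes past the threshold was recomputed under each alternative. DESeq2 moved it from 0 to 3 at EB4 and to 1 at EB5 (KO against WT) and, for EB8 against EB5 in KO, from 0 to 1. In these comparisons DESeq2 called 2077, 1719 and 661 of all 16124 tested genes, where the main fit called 986, 700 and 119. The fit of only the groups compared moved EB4 against ES in WT from 3 to 0, EB4 against ES in KO from 2 to 0 and EB5 against EB4 in KO from 2 to 0. In these steps it called 0, 23 and 91 of all 16124 tested genes, where the main fit called 2668, 564 and 405. A pseudocount of 0.1 moved the genotype difference in EB8 against ES from 2 to 1. Smaller moves were from 4 to 3 at EB8 with that pseudocount, edgeR and the chromosome level subtracted, from 3 to 2 for EB8 against EB5 in WT with that pseudocount and without a filter, from 3 to 2 for EB4 against ES in WT without a filter, and from 3 to 4 for EB8 against EB5 in WT in the fit of only the groups compared. The replicate block gave 1 at EB4 (Nr6a1), 1 at EB5 (Nr2f6), 5 at EB8 (with Nr2c2, adjusted p = 0.0378) and 3 for the genotype difference (with Nr2f6), and ended no call of the 17. The labels do not say what the numbers mark. The differences between replicates correlated across genes at 0.335, -0.058, -0.209 and -0.133 between KO and WT over the 4 stages, and between successive stages at -0.076, 0.605 and 0.57 in WT and 0.389, 0.422 and 0.233 in KO, so the numbers were not taken to pair KO with WT. With the KO numbers exchanged, a pairing tried after the data were seen, the counts were 0 at EB5 and 4 at EB8. Leaving out a library leaves 1 in its group, and calls were lost or gained in some of these fits, as given with the genes above. Calls over all tested genes moved in these fits as well, so a lost call need not be particular to these genes. The cause was not tested. Upper-quartile rescaling moved the median change of all genes from -0.029 to 0.111 at EB8 and to 0.16 for the genotype difference, and the EB8 calls over all genes from 1677 higher and 2020 lower to 2278 and 1615. The 17 calls kept their sign in each alternative.

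A stage alone stands for KO against WT and ES to EB8 for the genotype difference. No value that changed sign had an adjusted p under 0.05. Signs turned with quantile normalization for Nr2f1 (ES, 0.10), Rorb (ES, 0.12), Rora (EB8, 0.06), Rora (EB5 against EB4 in WT, -0.01), Nr2f6 (EB8 against EB5 in KO, -0.03); with edgeR for Rorb (EB4, 0.05), Rorb (EB4 against ES in KO, 0.10), Nr2c2 (EB5 against EB4 in KO, -0.04), Nr2c2 (EB8 against EB5 in KO, 0.03), Nr2f2 (ES to EB8, 0.13); with DESeq2 for Rorb (EB4, 0.06), Rorb (EB4 against ES in KO, 0.09), Nr2c2 (EB5 against EB4 in KO, -0.05), Nr2c2 (EB8 against EB5 in KO, 0.03), Nr2f2 (ES to EB8, 0.16); with upper-quartile rescaling for Rora (EB8, 0.06), Nr2f2 (ES to EB8, 0.04); with pseudocount 0.1 for Nr2f2 (ES to EB8, 0.10). Leaving out a library turned the sign of Nr2f1 (ES, -1.52 to 0.69), Nr2f6 (ES, -0.10 to 0.54), Nr2c1 (ES, -0.91 to 0.11), Nr2c2 (ES, -0.72 to 0.24), Nr2f1 (EB4, -1.08 to 0.59), Nr2f2 (EB4, -4.46 to 0.12), Nr2c2 (EB4, -0.85 to 0.27), Rorb (EB4, -1.57 to 0.96), Nr6a1 (EB5, -0.25 to 0.26), Rorb (EB5, -0.60 to 0.24), Rora (EB8, -0.51 to 0.36), Rorb (EB4 against ES in WT, -1.03 to 0.18), Nr2c2 (EB5 against EB4 in WT, -0.10 to 0.43), Rora (EB5 against EB4 in WT, -0.21 to 0.29), Nr2f6 (EB4 against ES in KO, -1.25 to 0.23), Nr2c1 (EB4 against ES in KO, -0.25 to 0.54), Nr2c2 (EB4 against ES in KO, -0.28 to 0.85), Rorb (EB4 against ES in KO, -1.63 to 0.90), Nr2f6 (EB5 against EB4 in KO, -0.36 to 1.13), Nr2c2 (EB5 against EB4 in KO, -0.52 to 0.60), Rorb (EB5 against EB4 in KO, -0.31 to 2.22), Nr2f6 (EB8 against EB5 in KO, -0.85 to 0.87), Nr2c2 (EB8 against EB5 in KO, -0.44 to 0.43), Rorb (EB8 against EB5 in KO, -0.67 to 0.19), Nr2f2 (ES to EB8, -0.37 to 0.09), Nr2c1 (ES to EB8, -0.72 to 0.30), each with its range. For Nr2e1, for Nr2f1 before RA and for Nr2f2 at ES in KO, the floor of 3 reads is the limit.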
